A study of Mus musculus with 10 samples.

Results

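SR proteins and heterogeneous nuclear ribonucleoproteins (hnRNPs) are the 2 large families of RNA-binding proteins that choose splice sites, and 32 of their genes were examined in testes lacking the DIS3 ribonuclease. The members were taken by symbol from the deposited gene count table, and all 32 were found among its 54232 genes. They comprised 10 SR proteins, 6 SR-related proteins, 9 hnRNPs of the A, C, D, F and H types, and 7 of the K, L, M, R, U and PTB types. The samples were testes of mice at postnatal day 4 (P4), from 5 Dis3 cKO males (labelled Dis3 KO) and 5 control males (labelled Dis3 WT). The floxed Dis3 line had been made in zygotes of B6D2F1 mice and was crossed with Ddx4-Cre mice. In Dis3 cKO mice 1 Dis3 allele was null and the other was floxed, and it was deleted by a Cre driven by the germ cell promoter of Ddx4. Control mice were littermates. Each library was made from both testes of 1 mouse, so germ cells were profiled together with Sertoli, Leydig, peritubular myoid and interstitial cells, which in Dis3 cKO mice keep 1 functional, floxed allele. In such bulk tissue, fewer cells of a type and less RNA per cell cannot be told apart.

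SR proteins carry an RNA recognition motif and a domain rich in arginine and serine. They bind exonic enhancers and recruit the spliceosome, and kinases of the SRPK and CLK families phosphorylate their arginine-serine domain. Many hnRNPs bind introns or exons and often act against SR proteins, although several also take part in mRNA export, decay and translation. Genes of both families are known for controlling their own mRNA through alternative exons that trigger nonsense-mediated decay. DIS3 is a nuclease of the RNA exosome, which degrades nuclear RNA, including short transcripts that start upstream of promoters (PROMPTs).

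Between 28538849 and 37739906 reads were counted in genes per Dis3 cKO library, against 35391042 to 41104912 per control library. Dis3 itself averaged 1494 ± 167 normalized counts in Dis3 cKO testes and 4596 ± 491 in controls (SD, n = 5 each). A normalized count is the deposited count divided by the library size, after edgeR's TMM scaling, relative to the mean library. The log2 fold change of Dis3 was -1.62 ± 0.09 (SE, adjusted p = 3.78e-07 by edgeR's quasi-likelihood test), and the groups did not overlap. All 12 germ cell markers listed were above 0 in every library, and 7 of them were lower in Dis3 cKO testes. Their summed level was 510 to 674 TPM (a relative abundance scaled for gene length) in Dis3 cKO libraries and 811 to 994 TPM in control libraries. In both groups, replicates 4 and 5 stood apart from replicates 1 to 3, and the labels do not say what the 2 clusters of libraries are. Dis3 cKO replicate 1 also stood apart from replicates 2 and 3 of its group. Its counts differed from theirs by a chi-square per degree of freedom of 21.4 and 26.1, against 4.68 between replicates 2 and 3. From Dis3 cKO replicates 4 and 5 it differed by 29.1 and 32.2. Deviations from the group means correlated on average at 0.10 between Dis3 cKO and control libraries of the same cluster and different replicate numbers. Between Dis3 cKO and control libraries of different clusters the mean was -0.12. Deviations sum to 0 within each group, so the 2 means are not independent.

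The 32 genes were expressed at very different levels, which are compared here in TPM because it accounts for length. Hnrnpa2b1, a core hnRNP that packages nascent transcripts, was the most abundant, at 886 ± 74.2 TPM in Dis3 cKO testes and 888 ± 56.9 TPM in control testes (SD, n = 5 each), and ranked 114 among all genes in controls. Hnrnpa1, an antagonist of SRSF1 in splice site choice, followed at 592 ± 41.9 TPM in Dis3 cKO testes and 596 ± 23.6 TPM in control testes. In control testes 9 members, all of them hnRNPs, exceeded 300 TPM, 14 lay between 100 and 300 TPM, and 9 lay below 100 TPM. SR proteins occupied a narrower band than the hnRNPs, from 82.8 TPM for Srsf3 to 225 TPM for Srsf5 in control means.

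At the low end, Ptbp2, the paralog of Ptbp1 known for its roles in neurons and male germ cells, had 21.2 ± 2.95 TPM in Dis3 cKO testes and 27.0 ± 6.09 TPM in control testes. Its paralog Ptbp1, which represses exons by binding pyrimidine tracts, had 422 ± 45.4 TPM in Dis3 cKO testes and 402 ± 44.6 TPM in control testes. Hnrnpa3 was listed lowest, at 17.1 ± 1.91 TPM in Dis3 cKO testes and 17.8 ± 0.91 TPM in control testes, but 82.5% of its exonic 50-base words occur elsewhere in the genome. Reads from such words are dropped by counting that discards multiply aligned reads, so the level of Hnrnpa3 may be understated. The same share was 41.2% for Hnrnpa1 and above 10% for 10 of the 32 members. In the order of control levels, 21 of the 31 neighbouring pairs had overlapping ranges over 5 libraries, whereas Hnrnpa2b1, Hnrnpa1 and the member after them, Hnrnph1, were separated by their ranges.

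**Figure D1:**
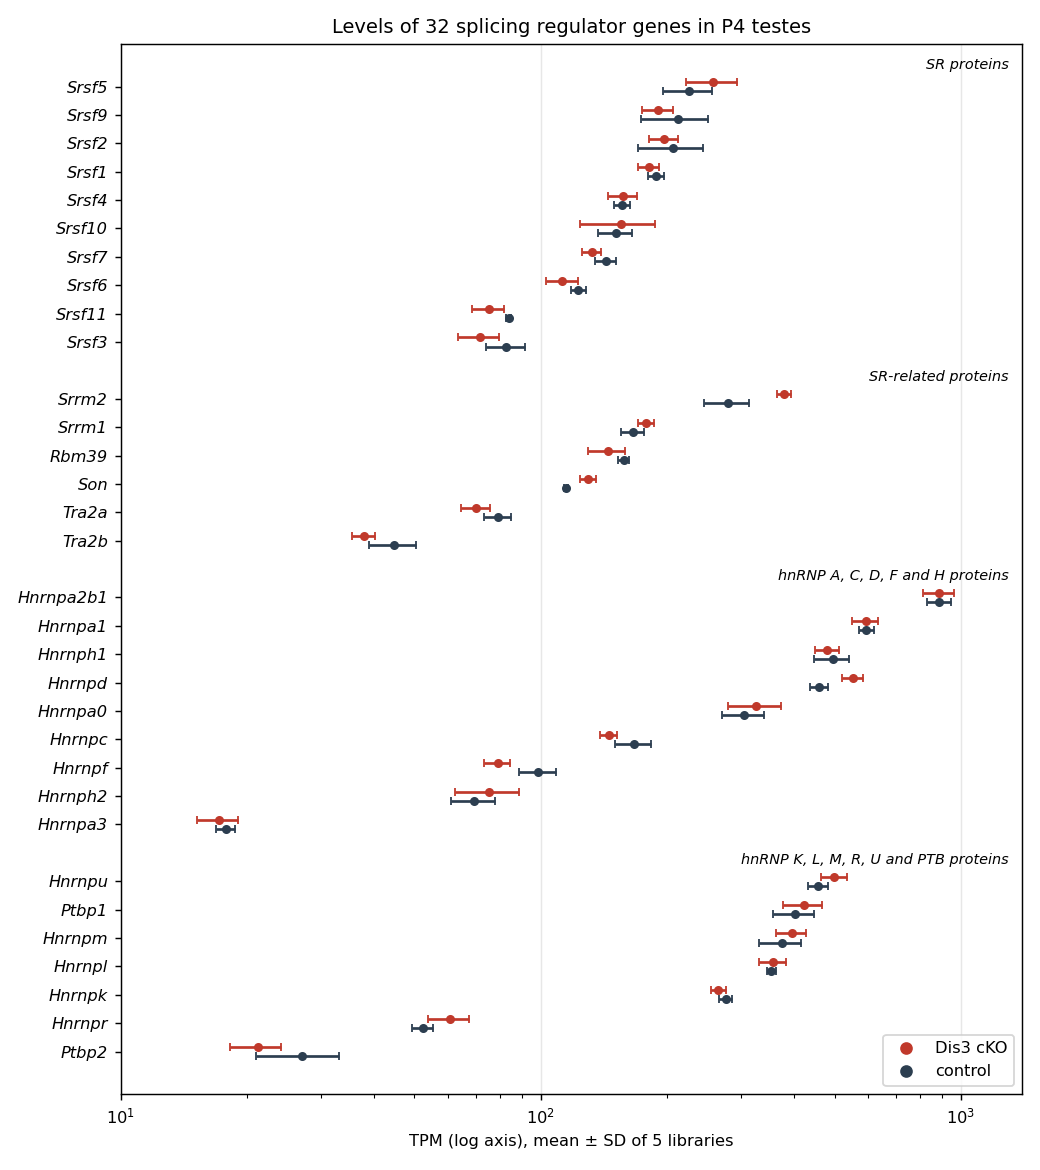
TPM (log axis) of each of the 32 genes, as mean and SD of 5 Dis3 cKO (red) and 5 control (dark) libraries, grouped by family and ordered by the control mean. Levels ran from 17.8 TPM for Hnrnpa3 to 888 TPM for Hnrnpa2b1 in control testes, and for most genes the 2 groups lie on top of each other.

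Against that range of levels, the differences between genotypes were small. Srrm2, Son and Hnrnpd were higher in Dis3 cKO testes, Hnrnpf was lower, and the other 28 members did not pass an adjusted p of 0.05 in edgeR's quasi-likelihood test over all 20043 tested genes. The 3 members called higher compare with 4.42% of all tested genes, and the 1 called lower with 3.48%. The log2 fold changes of the members ran from -0.34 to 0.46, with a median of -0.01, against -0.01 over all tested genes. The median size of the change regardless of sign was 0.12 among members and 0.18 among all tested genes. It was not computed for genes expressed at levels like those of the members. In 3 members every Dis3 cKO library lay above every control library, against 4.59% of all tested genes, and in 1 every Dis3 cKO library lay below, against 4.31%.

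**Figure D2:**
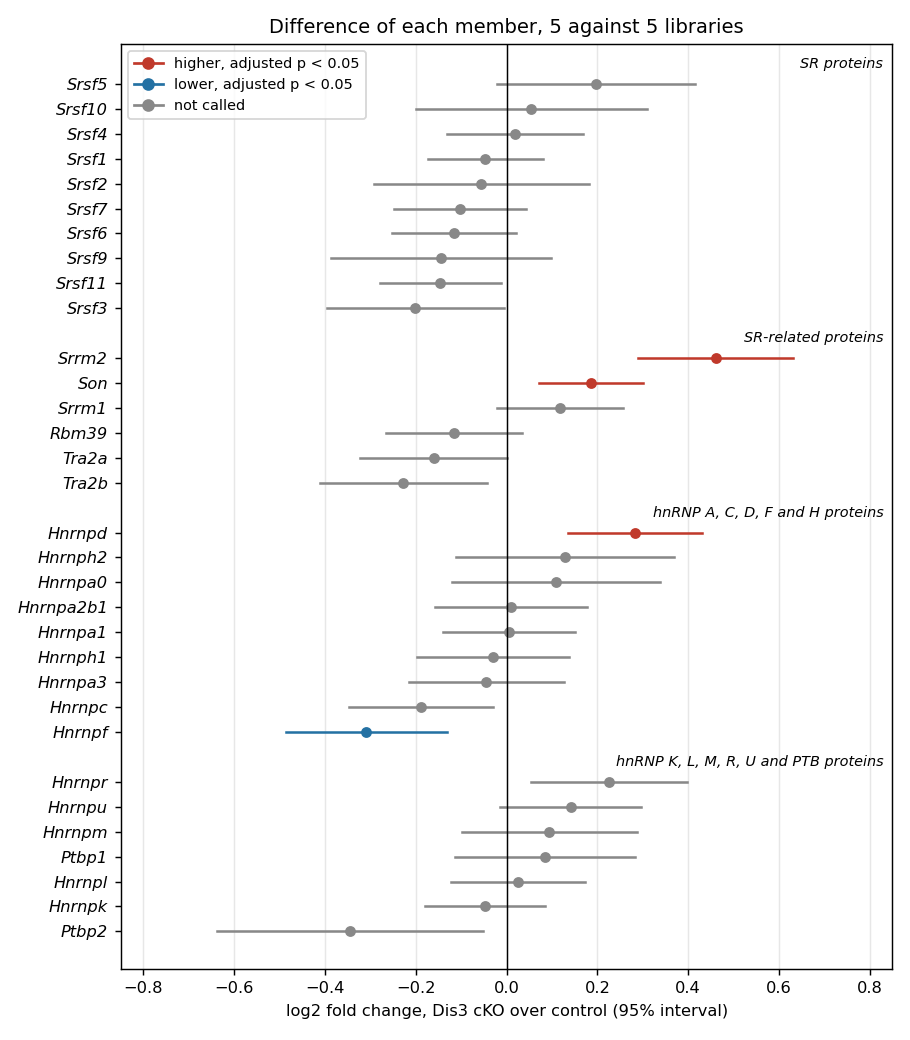
Log2 fold change, Dis3 cKO over control, of each of the 32 genes with its 95% interval, by family. Red marks Srrm2, Son and Hnrnpd (adjusted p below 0.05, higher), blue marks Hnrnpf (lower), and grey marks the 28 members that were not called, whose bars run from -0.64 to 0.42 at most.

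Srrm2 and Son encode very large scaffold proteins of nuclear speckles, the compartments in which splicing factors are stored. Srrm2 (chr17:23790662-23824741, GRCm38) had 41454, 45077, 45636, 41128 and 42799 normalized counts in Dis3 cKO testes, against 29751, 29731, 37898, 29405 and 30255 in control testes. All 5 Dis3 cKO libraries lay above all 5 control libraries, and control replicate 3 stood above the other controls. The log2 fold change was 0.46 ± 0.08 (SE, adjusted p = 0.00432, edgeR), which is 1.38-fold, and the call held when any 1 library was left out. Of its exonic bases 3.70% are shared with another annotated gene on the same strand.

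Son (chr16:91647506-91679221) had 19818, 19729, 19873, 20843 and 19863 normalized counts in Dis3 cKO testes, against 17432, 17206, 17580, 17901 and 17845 in control testes. The groups were separated and the spread within each was narrow. The log2 fold change was 0.19 ± 0.05 (SE, adjusted p = 0.0467, edgeR), and the adjusted p was above 0.05 whenever a library other than control replicate 3 was left out, at 0.109 at most.

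Among the hnRNPs, Hnrnpd encodes AUF1, which binds AU-rich elements and is known for its part in mRNA decay. Hnrnpd (chr5:99955935-99978938) had 43922, 44439, 44253, 41094 and 37514 normalized counts in Dis3 cKO testes, against 32598, 32999, 36249, 36235 and 35495 in control testes. Every Dis3 cKO library was above every control library, by the least margin for Dis3 cKO replicate 5. The log2 fold change was 0.28 ± 0.07 (SE, adjusted p = 0.0232, edgeR). Leaving out Dis3 cKO replicate 2 or 3 or control replicate 1 or 2 ended the call, with adjusted p up to 0.0657.

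Hnrnpf encodes a protein that binds runs of guanines, as does its relative HNRNPH1. Hnrnpf (chr6:117900324-117925622) had 2300, 2779, 2620, 2394 and 2376 normalized counts in Dis3 cKO testes, against 2882, 2675, 3041, 3473 and 3380 in control testes. The groups overlapped, since Dis3 cKO replicate 2 exceeded control replicate 2. The log2 fold change was -0.31 ± 0.08 (SE, adjusted p = 0.0363, edgeR). The call held only without Dis3 cKO replicate 2 or control replicate 2, and the adjusted p was up to 0.0907 without 1 of the other 8 libraries. For Hnrnph1 the log2 fold change was -0.03 ± 0.08 and for Hnrnph2, the X-linked member, it was 0.13 ± 0.11, and neither was called. Of the exonic 50-base words of Hnrnpf, 21.6% occur elsewhere in the genome.

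**Figure D3:**
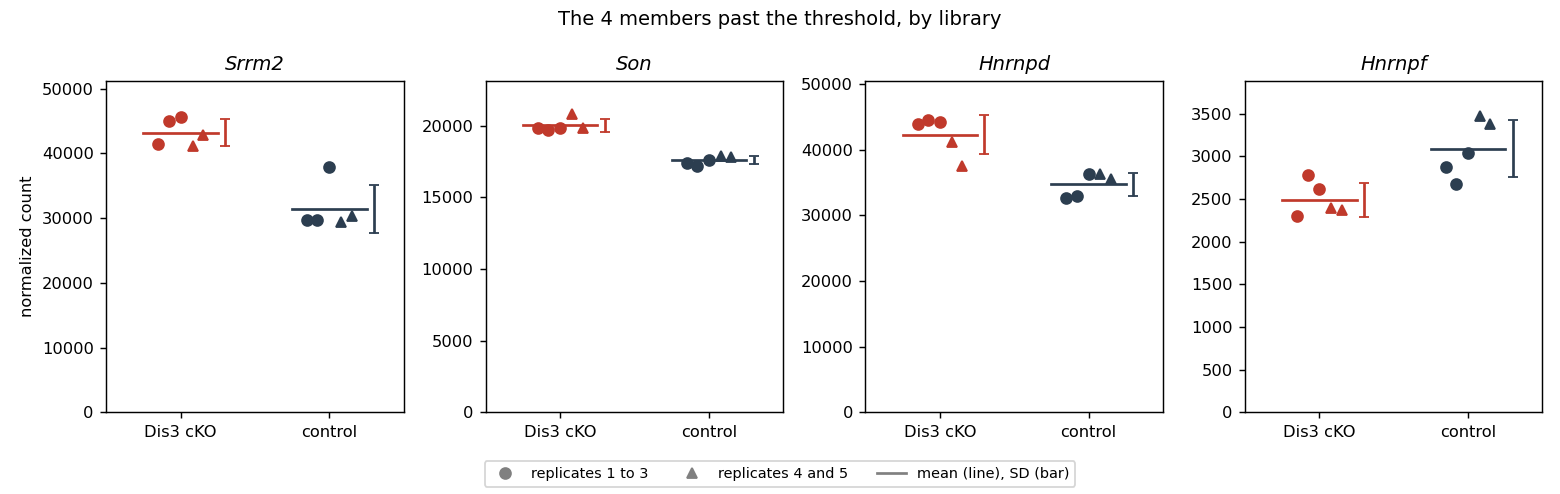
Normalized counts (axis from 0) of Srrm2, Son, Hnrnpd and Hnrnpf in each library, Dis3 cKO at left and control at right, with a line at the mean and a bar for the SD. Replicates 4 and 5 are drawn as triangles and the other 3 as circles. The Dis3 cKO points lie wholly above the control points for Srrm2, Son and Hnrnpd, and overlap them for Hnrnpf.

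None of the 10 SR proteins was called in either direction by edgeR or by DESeq2, and 2 had an unadjusted edgeR p below 0.05. Their median log2 fold change was -0.08, with 7 below 0 and 3 above. Srsf3, the smallest SR protein and one that links splicing to mRNA export, had -0.20 ± 0.09 (SE), and Srsf11 had -0.15 ± 0.06. Their unadjusted p values in the edgeR test were 0.0443 for Srsf3 and 0.0342 for Srsf11, and the adjusted values were 0.195 and 0.168. For Srsf11 the groups did not overlap, at 6016 to 7044 normalized counts in Dis3 cKO testes and 7073 to 7430 in control testes. At the other end Srsf5 had 0.20 ± 0.10 with an adjusted p of 0.257. Srsf1, a founding member of the family, had -0.05 ± 0.06, with a 95% interval from -0.17 to 0.08.

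The SR-related proteins included the 2 members called higher and also the 2 Tra2 genes, homologs of the fly sex determination factor transformer 2, which were not called. Tra2b had 3628 ± 169 normalized counts in Dis3 cKO testes and 4249 ± 565 in control testes (SD, n = 5 each). Its log2 fold change was -0.23 ± 0.09 (SE, adjusted p = 0.120, edgeR), and of the 10 fits that left out 1 library it passed in that without control replicate 3, at an adjusted p of 0.0346. It also passed with the library cluster as a term, at 0.0245. Tra2a had -0.16 ± 0.08 (adjusted p = 0.215). Srrm1, a splicing coactivator that works with SRRM2, had 0.12 ± 0.06, and Rbm39, a relative of the splicing factor U2AF, had -0.12 ± 0.07. Neither of these was called.

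Among the other hnRNPs, Hnrnpc, which binds uridine tracts in nascent RNA, had 6502 ± 239 normalized counts in Dis3 cKO testes and 7408 ± 786 in control testes, a log2 fold change of -0.19 ± 0.07 (adjusted p = 0.136, edgeR). Ptbp2 had 2011 ± 252 normalized counts in Dis3 cKO testes and 2554 ± 593 in control testes. Its log2 fold change of -0.34 ± 0.14 (adjusted p = 0.140) was the lowest of the 32. Hnrnpr had 0.23 ± 0.08 (adjusted p = 0.102), and Hnrnpu, the nuclear scaffold attachment factor, had 0.14 ± 0.07 (adjusted p = 0.258). For Hnrnpa2b1, Hnrnpa1, Hnrnpl and Hnrnpk the log2 fold changes lay between -0.05 and 0.03, with standard errors of 0.06 to 0.08.

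The 95% intervals, taken gene by gene from the fit without the cluster term, bound the difference in whole testes. They do not bound the difference within germ cells, the cells in which Dis3 was deleted. Of the 28 members not called, 27 had an interval wholly within 0.5 on the log2 scale in both directions, and the exception was Ptbp2, from -0.64 to -0.05. The standard errors of the members were 0.05 to 0.14. Summed over the 32 genes, the level was 7643 ± 271 TPM in Dis3 cKO testes and 7449 ± 306 TPM in control testes (SD, n = 5 each), and the ranges overlapped. Only the SR-related proteins had sums without overlap, at 922 to 953 TPM in Dis3 cKO libraries and 818 to 902 TPM in control libraries, with Srrm2 the largest part.

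The members called within each of the 2 clusters of libraries were not the same, and 1 of them, Srsf2, passed the test of the difference between clusters. Within replicates 4 and 5, 12 members were lower in Dis3 cKO testes and 2, Srrm2 and Son, were higher, where 11.7% of all 20162 genes tested there were called in each direction. The lower members were Srsf2, Srsf3, Srsf7, Srsf9, Tra2a, Tra2b, Hnrnpa2b1, Hnrnpc, Hnrnpf, Hnrnph1, Hnrnpk and Ptbp2. Within replicates 1 to 3, none was lower (1 at an unadjusted p below 0.05) and Srrm2, Hnrnpd and Hnrnpr were higher, where 4.8% of 20344 genes were called higher and 2.74% lower. The median log2 fold change of the members was -0.11 in replicates 4 and 5 and 0.08 in replicates 1 to 3, against -0.01 and -0.02 over all genes tested in each. Replicates 4 and 5 give only 2 libraries a group.

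Srsf2 was the 1 member past the test of the difference itself, the interaction of genotype and cluster. It encodes SC35, a component of nuclear speckles. Srsf2 had 5673, 6793 and 6499 normalized counts in Dis3 cKO replicates 1 to 3, against 5421, 5386 and 5635 in control replicates 1 to 3. In replicates 4 and 5 it had 5444 and 5804 in Dis3 cKO testes, against 7007 and 7953 in control testes. The Dis3 cKO libraries thus lay above the controls in one cluster and below them in the other. The log2 fold change was 0.21 in replicates 1 to 3 and -0.40 in replicates 4 and 5, and the difference between them was -0.62 ± 0.12 (SE, adjusted p = 0.00396, edgeR). In all, 4.58% of the 20043 genes passed this test, and 1 of the 32 members did.

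In 27 of the 32 members, Srsf2 among them, and in 10431 of all 20043 tested genes the fold change was lower in replicates 4 and 5. The median difference was -0.20 among members and -0.01 over all genes. Among other splicing regulators it was lower in 18 of 22 further hnRNP genes (median -0.18) and 15 of 18 further SR and SR-related genes (median -0.10). It was lower in 5 of 12 kinase, phosphatase and import genes, and in 13 of 28 further regulators, many of them tissue-restricted. Cell type markers also differed between the clusters, with 5 of 6 peritubular myoid, 4 of 7 stromal, 3 of 12 germ cell, 2 of 8 Leydig, 2 of 6 endothelial and 1 of 4 tested erythroid markers past the same interaction test, and none of 10 Sertoli cell and 6 macrophage markers. The summed peritubular myoid markers had 2817 and 2856 TPM in Dis3 cKO replicates 4 and 5, against 1867 and 1856 TPM in control replicates 4 and 5. In replicates 1 to 3 they had 2217 to 2592 TPM in Dis3 cKO libraries and 2919 to 3010 TPM in control libraries. The summed stromal markers reached 5488 and 5526 TPM in Dis3 cKO replicates 4 and 5, against 2540 and 2523 TPM in control replicates 4 and 5, whereas in replicates 1 to 3 they had 2715 to 3574 TPM in Dis3 cKO libraries and 3504 to 3883 TPM in control libraries. The summed germ cell markers were 569 and 510 TPM in Dis3 cKO replicates 4 and 5, against 994 and 986 TPM in control replicates 4 and 5, and 660 to 674 TPM against 811 to 947 TPM in replicates 1 to 3. The part of these cell type differences in the members' values was not tested.

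With the cluster as a term in the model, 5 members were higher (Srrm2, Son, Hnrnpd, Hnrnpr and Srsf5) and 5 were lower (Hnrnpf, Tra2a, Tra2b, Hnrnpc and Ptbp2). All genes tested gave 8.84% higher and 8.33% lower in that fit. The log2 fold changes hardly moved from those without the term: Srrm2 had 0.46 in both, Hnrnpd 0.28 in both and Ptbp2 -0.32 with the term.

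**Figure D4:**
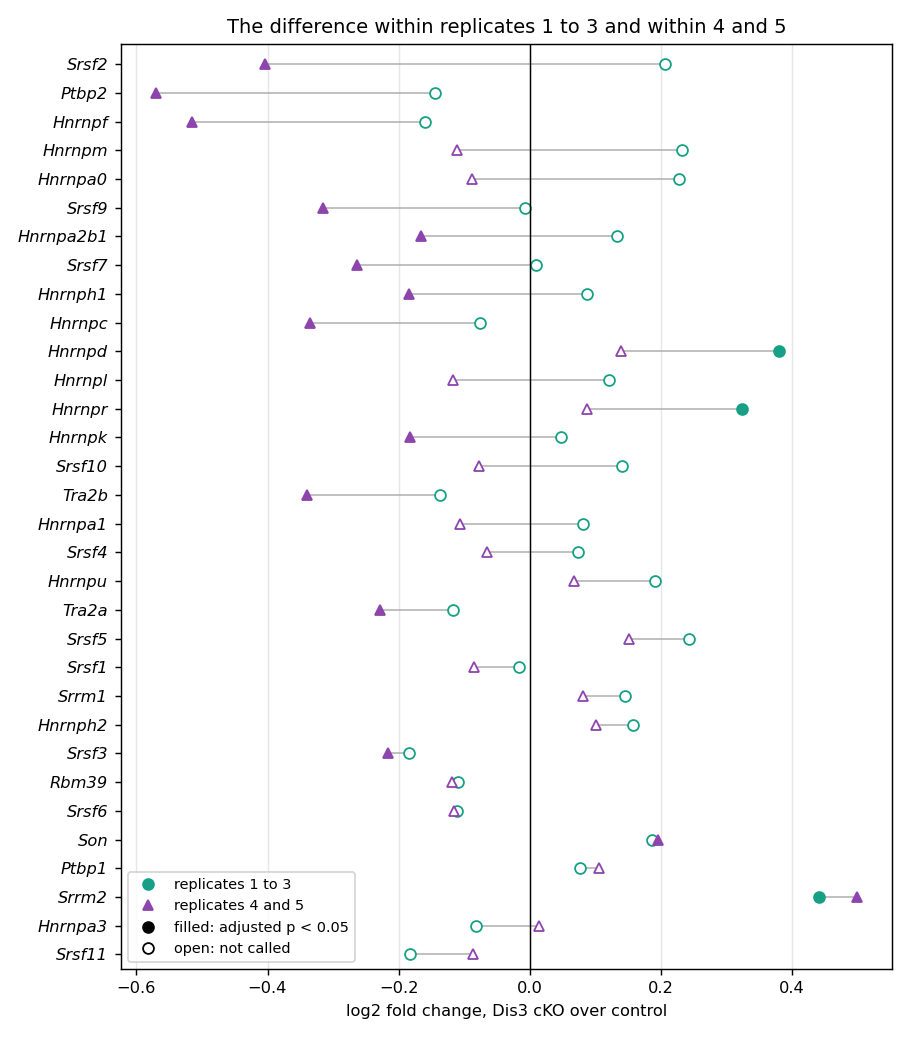
Log2 fold change, Dis3 cKO over control, of each of the 32 genes within replicates 1 to 3 (green circles) and within replicates 4 and 5 (purple triangles), ordered by the difference between them, with filled symbols for adjusted p below 0.05. Srsf2, at 0.21 and -0.40, is farthest apart, and Srrm2, at 0.44 and 0.50, is filled in both.

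Among 80 other splicing regulators in 4 lists, 3 were higher and 3 were lower, shares near those of all genes (4.42% and 3.48%). None of 12 kinase, phosphatase and import genes, most of which act on SR proteins, was called by edgeR or DESeq2. Srpk1, a kinase of the arginine-serine domain and the 1 gene of that list with an unadjusted p below 0.05, had a log2 fold change of -0.17 with an adjusted p of 0.0843. None of 18 further SR and SR-related genes was called by edgeR, where 2 had an unadjusted p below 0.05, and DESeq2 called 1 higher. Of 22 further hnRNP genes, Hnrnpul1 was higher (0.29 ± 0.08 SE, adjusted p = 0.0398), and Raly, a close relative of HNRNPC, was lower (-0.27 ± 0.06, adjusted p = 0.0187), as was Rbmxl1 (-0.27 ± 0.08, adjusted p = 0.0448), a copy of Rbmx whose reads can be confused with those of its source. Raly had 5089 to 5770 normalized counts in Dis3 cKO testes and 6071 to 6900 in control testes, without overlap.

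Of 28 further regulators, many of them tissue-restricted, the epithelial factor Esrp2 was higher (0.51 ± 0.14 SE, adjusted p = 0.0455), as was Celf2 (0.21 ± 0.06, adjusted p = 0.0380). Elavl2, an RNA-binding protein of neurons and germ cells, was lower (-0.38 ± 0.10, adjusted p = 0.0306). Esrp2 had 148 to 184 normalized counts in Dis3 cKO testes and 97.9 to 139 in control testes. Of these 6 genes, Raly stayed below an adjusted p of 0.05 in 8 of the 10 fits that left out 1 library, and each of the others in 1 or 2.

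Upstream of the promoters the differences were much larger than in the genes. PROMPTs were counted by the authors as reads antisense to the 3000 bases upstream of a gene's start, in regions chosen not to overlap other genes, and 14 of the 32 members had such a region. In 9 of these 14 the antisense reads were higher in Dis3 cKO testes at an adjusted p below 0.05 in edgeR's test. At an unadjusted p below 0.05, 11 were higher, and none (0) was lower at either threshold. Of all 12345 regions tested 13.6% were higher and 0.0486% lower, and of the 4362 regions of protein-coding genes at 10 TPM or more in control testes 28.9% were higher. The median log2 fold change of the 14 regions was 1.84, against 1.01 for the regions of those protein-coding genes. The 14 members lay at 27.0 TPM (Ptbp2) to 495 TPM (Hnrnph1) in control means, and no background at those levels was computed. In 7 of the 14 every Dis3 cKO library lay above every control library, against 11.1% of all 12345 regions. That share was not computed for the protein-coding genes at 10 TPM or more. All PROMPT reads together came to 0.559% to 0.899% of the gene counts in Dis3 cKO libraries and 0.315% to 0.491% in control libraries.

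The promoters of the 3 genes with the greatest PROMPT increase are shown because the counted antisense regions adjoin them, with that of Hnrnph1, whose PROMPT was not called, for comparison. Each is 250 bases before to 50 bases after the RefSeq gene start in the direction of the gene (GRCm38.p6), with capitals for the CCAAT box (CCAAT or, on the other strand, ATTGG) and the GC box (GGGCGG or CCGCCC).
Hnrnpc, chr14:52103972-52104271, minus strand: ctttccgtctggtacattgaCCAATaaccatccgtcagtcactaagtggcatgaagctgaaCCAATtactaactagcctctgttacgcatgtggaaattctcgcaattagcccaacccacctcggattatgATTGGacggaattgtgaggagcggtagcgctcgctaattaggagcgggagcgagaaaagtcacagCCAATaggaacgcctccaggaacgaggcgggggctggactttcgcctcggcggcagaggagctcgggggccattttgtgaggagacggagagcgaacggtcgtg
Tra2b, chr16:22265956-22266255, minus strand: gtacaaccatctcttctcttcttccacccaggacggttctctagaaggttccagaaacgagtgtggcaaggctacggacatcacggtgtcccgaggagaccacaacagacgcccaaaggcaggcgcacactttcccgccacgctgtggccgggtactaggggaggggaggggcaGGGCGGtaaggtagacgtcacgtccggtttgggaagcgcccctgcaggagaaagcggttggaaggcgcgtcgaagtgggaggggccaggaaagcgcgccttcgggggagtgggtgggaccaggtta
Srrm1, chr4:135353097-135353396, minus strand: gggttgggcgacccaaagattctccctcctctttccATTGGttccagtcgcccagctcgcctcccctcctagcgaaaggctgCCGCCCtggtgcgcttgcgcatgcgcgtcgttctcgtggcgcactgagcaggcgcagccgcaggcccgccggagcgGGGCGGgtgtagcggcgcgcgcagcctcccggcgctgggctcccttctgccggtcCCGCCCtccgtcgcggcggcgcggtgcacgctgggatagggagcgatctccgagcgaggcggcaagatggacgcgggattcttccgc
Hnrnph1, chr11:50376740-50377039, plus strand: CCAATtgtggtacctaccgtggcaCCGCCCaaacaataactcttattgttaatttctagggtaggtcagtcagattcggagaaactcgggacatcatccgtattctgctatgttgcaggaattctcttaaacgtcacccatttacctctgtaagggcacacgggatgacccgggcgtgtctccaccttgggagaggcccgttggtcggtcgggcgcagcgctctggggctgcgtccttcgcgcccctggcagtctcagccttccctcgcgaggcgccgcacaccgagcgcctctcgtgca

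The window of Hnrnpc held 4 CCAAT boxes and 0 GC boxes, and that of Tra2b held 0 and 1. That of Srrm1 held 1 CCAAT box and 3 GC boxes, and that of Hnrnph1 held 1 of each. Among all 32 members, 59.4% of the windows held a CCAAT box and 71.9% a GC box, against 37.4% and 35.7% of all 32851 RefSeq windows of this length. A TATA box (TATAAA or TTTATA) was present in 9.38% of the members' windows and 13.6% of all windows. The members' windows had a median of 30.5 CpG dinucleotides, against 7 in all windows. These are matches of letters, not measured binding. A comparison with windows of genes at similar expression levels was not made.

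Hnrnpc had the greatest PROMPT increase of the members (chr14:52104029-52107028). Its antisense counts were 162, 117, 106, 79 and 64 in Dis3 cKO testes, against 8, 17, 4, 9 and 5 in control testes. The groups were far apart, and the log2 fold change after scaling was 3.87 ± 0.34 (SE, adjusted p = 3.03e-26, edgeR), which is 14.6-fold. Over the same libraries the Hnrnpc gene itself had a log2 fold change of -0.19.

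Tra2b (chr16:22266006-22269005) had 59, 60, 50, 59 and 42 antisense counts in Dis3 cKO testes, against 1, 10, 15, 9 and 4 in control testes, a log2 fold change of 3.05 ± 0.40 (adjusted p = 2.63e-12). Srrm1 (chr4:135353322-135356321) had 72, 46, 48, 18 and 36 in Dis3 cKO testes, against 5, 1, 10, 3 and 14 in control testes, a log2 fold change of 3.01 ± 0.43 (adjusted p = 2.20e-10). Neither had overlapping groups, although Dis3 cKO replicate 4 of Srrm1 was close to control replicate 5.

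The most heavily read PROMPTs of the members lay upstream of Hnrnpa0, an intronless hnRNP gene, and Rbm39. Hnrnpa0 (chr13:58128557-58131556) had 260, 278, 241, 178 and 163 antisense counts in Dis3 cKO testes, against 83, 65, 100, 31 and 72 in control testes, a log2 fold change of 1.95 ± 0.23 (adjusted p = 1.53e-14). Rbm39 (chr2:156180239-156183238) had 224, 264, 206, 156 and 133 in Dis3 cKO testes, against 78, 67, 49, 52 and 76 in control testes, a log2 fold change of 1.86 ± 0.24 (adjusted p = 1.22e-12). Both were separated without overlap.

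The SR proteins Srsf4, Srsf6 and Srsf9 were also called. Srsf9 had 87, 75, 87, 92 and 72 antisense counts in Dis3 cKO testes, against 43, 33, 39, 23 and 35 in control testes, a log2 fold change of 1.53 ± 0.30 (adjusted p = 6.70e-06, edgeR). Srsf4 had 34, 53, 50, 19 and 36 in Dis3 cKO testes, against 17, 17, 7, 10 and 6 in control testes, a log2 fold change of 1.98 ± 0.41 (adjusted p = 3.07e-05). Srsf6 had 30, 14, 27, 15 and 6 in Dis3 cKO testes, against 3, 7, 4, 0 and 11 in control testes, and its groups overlapped, with a log2 fold change of 2.15 ± 0.59 (adjusted p = 0.00322). Hnrnpl, whose protein binds CA repeats, was near the threshold at 1.22 ± 0.44 (adjusted p = 0.0466), and of the 10 fits that left out 1 library its call held in those without Dis3 cKO replicate 4 or 5 or control replicate 2, with adjusted p up to 0.298 in the others. DESeq2 gave 0.0571, and the fit with the cluster as a term gave 0.0182.

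The other 5 regions were not called. Tra2a had 28, 16, 6, 4 and 5 antisense counts in Dis3 cKO testes, against 14, 3, 2, 0 and 1 in control testes, a log2 fold change of 1.81 ± 0.73 (adjusted p = 0.0834). It passed without control replicate 1, at an adjusted p of 0.00620, or without Dis3 cKO replicate 4, at 0.0469. Hnrnpr had 1.20 ± 0.49 (adjusted p = 0.0905), and passed with a mean of at least 10 counts (0.0312), with DESeq2 (0.0397), with the cluster as a term (0.0463) and without control replicate 1 (0.0345). Hnrnph1 had 0.94 ± 0.50 and Ptbp2 had 0.83 ± 0.82. Srrm2 had 18, 20, 15, 17 and 18 in Dis3 cKO testes, against 24, 21, 28, 14 and 28 in control testes, a log2 fold change of -0.11 with a 95% interval from -0.96 to 0.74. The counted region of Srrm2 lies far from its RefSeq start, because the annotation used for counting begins the gene 12525 bases before it. The RefSeq starts of Hnrnpl and Ptbp2 also lay 2349 and 1078 bases inside the counted genes, and those of the other 11 within 175 bases of the counted start.

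Set beside the PROMPTs, the log2 fold changes of the genes themselves were small. Of the 9 genes with a higher PROMPT, none was called at the gene in the fit without the cluster term. In that fit 4.42% of all tested genes were higher and 3.48% lower. The called members Son, Hnrnpd and Hnrnpf had no counted region and could not enter this count. The gene log2 fold changes of the 9 ran from -0.23 for Tra2b to 0.12 for Srrm1. With the cluster as a term, 2 of the 9, Hnrnpc (adjusted p = 0.0483, edgeR) and Tra2b (adjusted p = 0.0245), were lower at the gene. All tested genes gave 8.33% lower in that fit. Across the 14 genes the correlation of the PROMPT and gene log2 fold changes was -0.43 (Pearson, over genes that share the same 10 libraries, given as a description). It includes Srrm2, which had the lowest PROMPT value (-0.11) and the highest gene value (0.46) of the 14. The counted region of Srrm2 lies far from its RefSeq start, and the correlation without it was not computed.

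**Figure D5:**
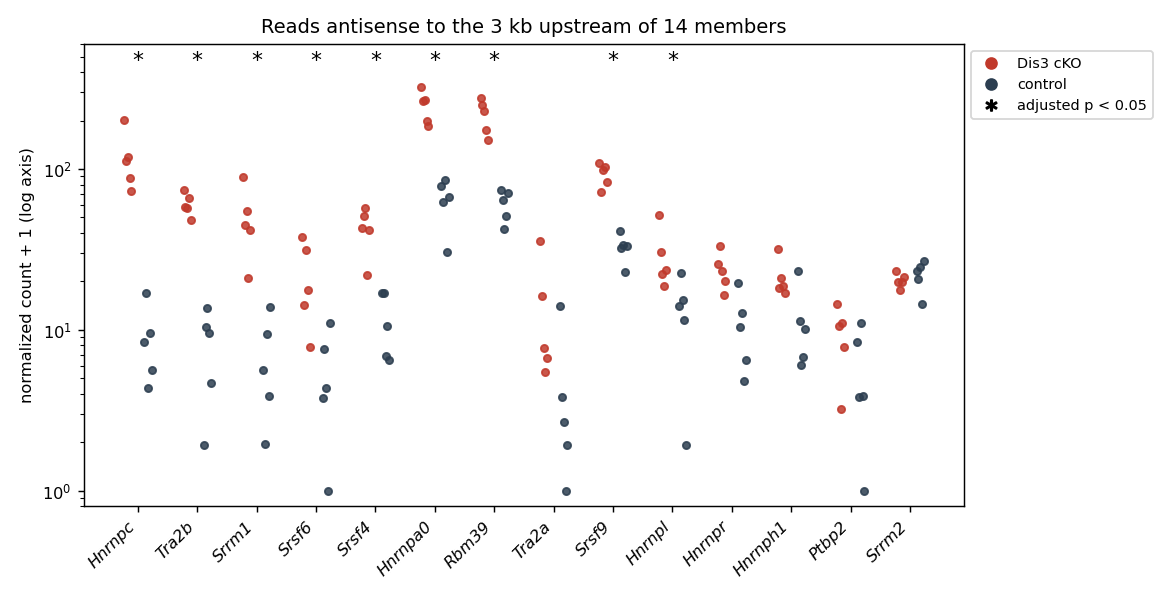
Normalized counts plus 1 (log axis) of reads antisense to the 3000 bases upstream of 14 members, in each Dis3 cKO (red) and control (dark) library, ordered by log2 fold change, with stars for adjusted p below 0.05. The groups are apart from Hnrnpc, Tra2b and Srrm1 at left to Srsf9 with the exceptions of Srsf6 and Tra2a, and they lie together for Srrm2 at right.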

How the data were processed

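Total RNA of P4 testes had been depleted of rRNA and sequenced by strand-specific RNA-seq. Per the file headers, the authors counted reads with featureCounts 1.6.4 against the GENCODE annotation M18 of GRCm38 (the labels name GRCm38.p5), after trimming with cutadapt and alignment with HISAT2. The deposited values are raw counts of 54232 genes and of 30166 PROMPT regions, and PROMPT reads were counted on the opposite strand. The study's methods name a later build, which differs from these headers, so coordinates here are those of GRCm38. Gene symbols were joined by Ensembl ID, and all 32 members overlapped their RefSeq position.

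From the counts, edgeR 4.0.16 (R 4.3.3) fitted genotype over 10 libraries with filterByExpr, TMM scaling and the quasi-likelihood test. Genes with Benjamini-Hochberg adjusted p below 0.05 over all 20043 tested genes were called. PROMPT regions with a mean of at least 3 counts were fitted likewise, with the gene library sizes. Intervals are 95% and are for the log2 fold change, with a standard error that rests on the spread between these libraries. TPM was computed from counts and exonic length. The scripts were tested on simulated data. The alternatives were DESeq2 1.42.0, RLE scaling, no filter on low counts, leaving out each library, a replicate block, the library cluster as a term, and each cluster alone. For PROMPT regions they were a mean of at least 10 counts, DESeq2, leaving out each library, the block and the cluster.

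The named genes were all members, Dis3, up to 4 called genes with the lowest adjusted p in each of the 4 other lists, and the members' PROMPTs. Members and lists were chosen with earlier results of these data known. Counting discarded reads with several alignments unless set otherwise, so the share of exonic 50-base words found elsewhere in the genome (GRCm39) was computed for each member. On the same strand, 24.9% of the exonic bases of Hnrnpm are shared with Marchf2, and reads there could not be assigned to either gene. Promoter windows are from RefSeq (GRCm38.p6).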

Additional observations from a re-analysis of the deposited data

Results flagged for a closer look

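Srsf2 differed between the 2 clusters of libraries: its log2 fold change in replicates 4 and 5 less that in replicates 1 to 3 was -0.62 (adjusted p = 0.00396, edgeR interaction test). Markers of peritubular myoid (5 of 6), stromal (4 of 7), germ (3 of 12), Leydig (2 of 8) and endothelial cells (2 of 6), and 1 of 4 tested erythroid markers, passed the same test, and their part was not tested.

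In 5 of 64 groups of 5 libraries 1 library lay far from the others by Dixon's test, where chance flags about 1 in 20. Control replicate 3 was high for Srrm2, at 37898 normalized counts against 29405 to 30255 in the other controls, and for Srrm1, at 13683 against 11839 to 12254. Dis3 cKO replicate 4 was high for Srsf6, at 6258 against 5327 to 5544, and for Son, at 20843 against 19729 to 19873. Dis3 cKO replicate 1 was high for Srsf10, at 15330 against 9406 to 11095. Without control replicate 3 the log2 fold change of Srrm2 was 0.55.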

How the results depend on the processing

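DESeq2 and RLE scaling kept the call and the direction of all 32 members. Without a filter on low counts 1 member was higher and 2 were lower, and no other splicing regulator was higher (0). With the library cluster as a term 5 members were higher and 5 lower, 7 other regulators were higher and 7 lower, and 1772 genes were higher and 1669 lower, against 885 and 698 without it. In replicates 4 and 5 alone 12 members were lower, 9 other regulators were higher and 13 lower, and 2361 genes were higher and 2360 lower. In replicates 1 to 3 alone 0 members and 1 other regulator were lower. DESeq2 called 6 other regulators higher. With 1 library left out, the counts were 1 to 3 members higher and 0 to 1 lower, 0 to 7 other regulators higher and 0 to 3 lower, 516 to 1173 genes higher and 366 to 806 lower, and 8 to 10 member PROMPTs higher; the other PROMPT alternatives gave 9 or 10, and in the 9 of DESeq2 Hnrnpr took the place of Hnrnpl.

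Replicate numbers are shared between the groups, but neither the labels nor the correlations were enough to treat them as pairs: same-numbered libraries correlated at 0.08 to 0.18, above 0.1 in 3 of 5 pairs, and 6 of 10 libraries correlated best with their own number, which is a hint of pairing. With the replicate block 4 members were lower and 4 higher, those added being Srsf5 (higher, adjusted p = 0.0363), Srsf3 (lower, 0.0250), Tra2b (lower, 0.0379) and Ptbp2 (lower, 0.0331), 7 other regulators were higher and 5 lower, and 1489 genes were higher and 1337 lower.

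Sign changes occurred among members that were not called in the fit without the cluster term. Of these, Srsf2, Srsf7, Hnrnpa2b1, Hnrnph1 and Hnrnpk were called lower within replicates 4 and 5. In replicates 1 to 3 the log2 fold change was 0.21 for Srsf2, 0.0088 for Srsf7, 0.087 for Hnrnph1 and 0.047 for Hnrnpk. In replicates 4 and 5 the log2 fold change was -0.066 for Srsf4, -0.077 for Srsf10, -0.088 for Hnrnpa0, -0.11 for Hnrnpa1, -0.17 for Hnrnpa2b1, 0.014 for Hnrnpa3, -0.12 for Hnrnpl and -0.11 for Hnrnpm. Without a filter the log2 fold change was -0.0045 for Srsf4, -0.019 for Hnrnpa1 and -0.015 for Hnrnpa2b1. With 1 library left out, the range was -0.11 to 0.043 for Srsf2, -0.023 to 0.064 for Srsf4, -0.080 to 0.11 for Srsf10, -0.045 to 0.032 for Hnrnpa1, -0.044 to 0.046 for Hnrnpa2b1, -0.064 to 0.014 for Hnrnph1 and -0.025 to 0.058 for Hnrnpl. The cause was not tested. Depth limits the PROMPTs of Ptbp2 and Tra2a most, at means of 6.4 and 7.9 counts a library.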
